A study of Arabidopsis thaliana with 24 samples.

Results

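Fasciclin-like arabinogalactan proteins (FLAs) are glycoproteins of the plasma membrane and cell wall. They carry fasciclin domains, folds known from cell adhesion proteins of animals, next to stretches rich in hydroxyproline that are decorated with arabinogalactan, and many are tethered to the outer membrane face by a glycosylphosphatidylinositol (GPI) anchor. FLA1, FLA2, FLA8 and FLA10 belong to the members with a pair of fasciclin domains, and FLA6, FLA7, FLA9, FLA11, FLA12 and FLA13 to those with a single one. In Arabidopsis, FLA11 and FLA12 are known from secondary walls of the stem, and loss of FLA1 from poor shoot regeneration in culture. These 10 genes were chosen by their locus identifiers, out of 33602 genes in the count table and 20 FLA genes listed for the comparison, and a fasciclin domain was annotated for each of the 10. They were FLA1 (AT5G55730), FLA2 (AT4G12730), FLA6 (AT2G20520), FLA7 (AT2G04780), FLA8 (AT2G45470), FLA9 (AT1G03870), FLA10 (AT3G60900), FLA11 (AT5G03170), FLA12 (AT5G60490) and FLA13 (AT5G44130). The choice was made with earlier results of these data known. Shares over all genes are therefore set beside counts of members as a description and not as an independent test.

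The libraries came from shoots of 7-day-old seedlings of an EXPA1 overexpression line (EXPA1 OE, line 8-4) and of the wild type (WT, Col-0), with 4 biological replicates per group and 24 libraries in all. In the line, dexamethasone (Dex) activates a glucocorticoid receptor fusion placed under the promoter of RPS5A, a gene of dividing tissue, and this activator switches on a copy of EXPA1, an α-expansin that loosens cell walls. Both genotypes were kept without Dex (control), given Dex for 3 h, or raised for 7 days in its presence, so WT received the same Dex as the line. The construct is carried by the control plants of the line as well, and all results on the line rest on that 1 transgenic line. Levels are given as CPM, a library-size-scaled count with TMM factors, and total counts ran from 33618231 to 82187350 per library (median 55374357.5). After 7 days of Dex the totals of the genotypes did not overlap, at 33618231 to 39958042 in EXPA1 OE against 58134070 to 79909644 in WT. EXPA1 averaged 18568 ± 433 CPM in EXPA1 OE against 373 ± 34.5 CPM in WT after 3 h, 13195 ± 2107 CPM against 385 ± 91.0 CPM after 7 days, and 428 ± 42.8 CPM against 366 ± 193 CPM without Dex (SD, n = 4). Markers of green shoot summed to 42838 to 80297 CPM per library and 9 root markers to 14.4 to 35.0 CPM.

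The annotated gene models separated the members by size. Coding sequences of the 4 genes with paired domains ran from 1212 to 1275 bases and those of the other 6 from 741 to 765 bases. Pairs of codons that specify the proline motifs typical of arabinogalactan attachment numbered 24 each in FLA8 and FLA10, more than in any other member. FLA8 and FLA10 were also the closest pair, with 82.7% identical bases over the shorter coding sequence and 4 shared words of 50 bases. Reads longer than the shared stretches would not match both genes in full, and the number of shared reads was not tested. FLA9 and FLA13 were the next closest, with 77.6% identity and 0 shared words of 50 bases. In TAIR10 coordinates FLA8 lies on chromosome 2 from 18742540 to 18744111, FLA10 on chromosome 3 from 22499360 to 22501239, FLA11 on chromosome 5 from 752750 to 753657 and FLA9 on chromosome 1 from 982506 to 983540, all on the minus strand and each with 1 exon.

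The regions upstream of FLA8, FLA10 and FLA11 are shown because these were the members called lower after 3 h of induction. Each run is the 250 bases before the annotated transcript start, read 5′ to 3′ on the strand of the gene from the RefSeq genome of Arabidopsis (TAIR10.1, whose nuclear chromosomes carry the coordinates of TAIR10). Capitals mark the words searched for below, and FLA8 has 5 of them, FLA10 has 2 stretches and FLA11 has none.
FLA8, chr2:18744112-18744361, minus strand: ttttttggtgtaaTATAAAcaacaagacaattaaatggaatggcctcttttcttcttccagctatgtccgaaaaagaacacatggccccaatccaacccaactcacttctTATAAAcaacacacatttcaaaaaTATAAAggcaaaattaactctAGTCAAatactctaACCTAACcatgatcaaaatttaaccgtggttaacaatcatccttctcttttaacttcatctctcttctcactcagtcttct
FLA10, chr3:22501240-22501489, minus strand: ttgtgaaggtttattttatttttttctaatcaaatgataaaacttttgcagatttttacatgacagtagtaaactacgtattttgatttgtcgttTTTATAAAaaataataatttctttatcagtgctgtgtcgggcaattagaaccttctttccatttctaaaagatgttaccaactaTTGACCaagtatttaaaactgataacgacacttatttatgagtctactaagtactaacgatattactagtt
FLA11, chr5:753658-753907, minus strand: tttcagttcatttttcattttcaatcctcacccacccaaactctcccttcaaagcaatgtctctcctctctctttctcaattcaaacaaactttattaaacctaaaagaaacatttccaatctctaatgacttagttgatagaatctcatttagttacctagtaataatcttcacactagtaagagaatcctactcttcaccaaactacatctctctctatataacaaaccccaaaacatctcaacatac

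The search covered both strands of 300 bases, from 250 before to 50 after the start. The words were the TATA box TATAAA, the W-box as TTGACC or as TTGACT, the AC element as ACCTACC or as ACCAACC or as ACCTAAC, the G-box CACGTG, the telo box AAACCCTA and the evening element AAAATATCT. FLA8 held TATAAA at 237, 140 and 116 bases before the start, a W-box word on the opposite strand at 95 and an AC element at 81. FLA10 held a W-box word at 71 bases before the start and TATAAA at 153, where a second match on the opposite strand at 155 overlapped it, and FLA10 also had an evening element after the start. Of the 10 members 7 held TATAAA, 4 a W-box word, 2 an AC element and 1 an evening element, and 0 held a G-box or a telo box. The same words were found in 48.3%, 31.3%, 7.58%, 2.42%, 7.21% and 8.15% of the 33322 promoters searched, in the order TATA box, W-box, AC element, evening element, G-box and telo box. FLA8 and FLA10 both held TATAAA and a W-box, the W-box as TTGACT in FLA8 and as TTGACC in FLA10, and FLA11 held none of the words.

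Per length of transcript, FLA9 was the most abundant member in all 6 groups. In WT control shoots it averaged 149.9 ± 46.8 CPM per kb (SD, n = 4), followed by FLA8 at 111 ± 2.34, FLA13 at 80.2 ± 2.82 and FLA2 at 62.5 ± 16.0 CPM per kb. FLA1 and FLA7 formed a middle pair at 25.5 ± 3.68 and 25.2 ± 0.655 CPM per kb, closer to each other than their spread. FLA11, FLA10 and FLA12 were lower, at 7.62 ± 0.600, 3.58 ± 1.33 and 1.91 ± 0.147 CPM per kb, and FLA6 was near the limit of detection at 0.351 ± 0.311 CPM per kb. After 3 h of Dex in EXPA1 OE, FLA8 was at rank 5 of this order, at 13.4 ± 1.90 CPM per kb, against rank 3 in WT after 3 h, at 81.99 ± 4.09 CPM per kb.

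**Figure D1:**
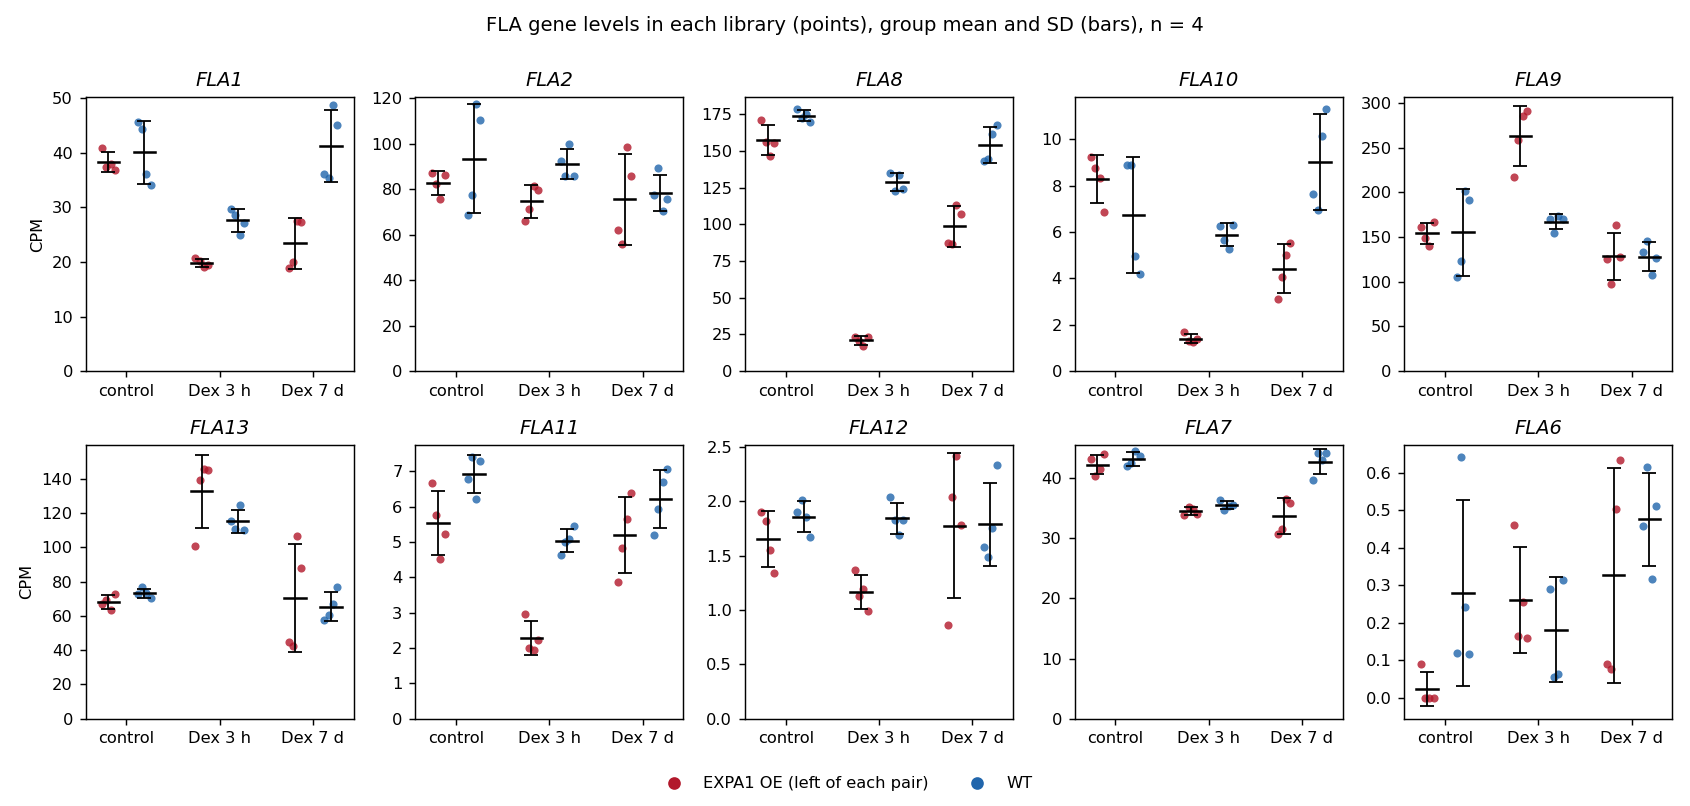
Levels of the 10 FLA genes in CPM on linear axes, 1 panel per gene, with 1 point per library, black bars for the group mean and SD (n = 4), and EXPA1 OE left of WT within control, Dex 3 h and Dex 7 d. FLA8 lay between 17.1 and 23.4 CPM in EXPA1 OE after 3 h, below all other libraries, and FLA9 lay at 217 to 291 CPM in the same libraries.

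The first question was how the line differed from WT after 3 h of Dex, when both had received it. FLA8, FLA10 and FLA11 were lower in EXPA1 OE, and no member was called higher. To be called, a gene had to reach an adjusted p (Benjamini-Hochberg) below 0.05 in edgeR's quasi-likelihood test and a fold of 1 or more on the log2 scale in either direction. Errors of fold changes are standard errors. Of the 10 members, all with enough counts to test, 3 were called lower and 0 higher, where 4.89% of the 20449 genes tested were called lower and 4.51% higher. By adjusted p alone 6 members were lower and 1 higher, where 25.8% were lower and 27.4% higher of all genes tested, so differences past this test were common. The median log2 fold change of the members was -0.38, against 0.02 over all genes tested.

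FLA8, with paired fasciclin domains, had the largest difference of the 10. It stood at 23.3, 20.5, 17.1 and 23.4 CPM in EXPA1 OE against 135, 122, 134 and 124 CPM in WT after 3 h (replicates 1 to 4). The groups were far apart, with a mean in EXPA1 OE at 16.4% of that in WT. The log2 fold change was -2.61 ± 0.10 (adjusted p = 1.02e-08, edgeR's quasi-likelihood test). In whole shoots, fewer cells that express a gene and less RNA per cell cannot be told apart.

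FLA10, the closest relative of FLA8, had 1.67, 1.29, 1.26 and 1.403 CPM in EXPA1 OE against 6.26, 5.67, 5.27 and 6.33 CPM in WT after 3 h. All 4 libraries of the line lay below all 4 of WT, where the groups did not overlap for 48.4% of all genes tested. The mean was at 23.9% of that in WT and the log2 fold change was -2.06 ± 0.12 (adjusted p = 3.58e-07, edgeR's quasi-likelihood test). The call rests on 312 counts summed over EXPA1 OE against 1009 over WT, where FLA8 had 4685 against 22049. A read that matched both genes would be divided between them by the count estimation, and how many did was not tested. With exon counts in place of estimated counts 3 members were also called. FLA10 ran from -2.08 to -2.06 over the 6 other settings of the processing.

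FLA11, known from secondary walls, stood at 2.96, 1.98, 1.95 and 2.23 CPM in EXPA1 OE against 4.63, 5.01, 5.08 and 5.44 CPM in WT after 3 h. The groups did not overlap, as for 48.4% of all genes tested, and the log2 fold change was -1.15 ± 0.14 (adjusted p = 7.00e-05, edgeR's quasi-likelihood test). FLA12, its partner in stem walls, had a log2 fold change of -0.66 ± 0.15 (adjusted p = 0.00404, the same edgeR test), lower but under the fold threshold, at 0.988 to 1.37 CPM in EXPA1 OE against 1.69 to 2.04 CPM in WT. Markers of xylem and secondary walls moved in the same direction in these libraries. Of 12 such markers 9 were lower by adjusted p, and 1 of these passed both thresholds, the secondary wall regulator MYB83 (-1.05 ± 0.26). Over all genes tested 25.8% were lower by adjusted p and 4.89% were called lower. The median of the 12 was -0.46. Their summed level was 115 to 125 CPM in EXPA1 OE against 148 to 163 CPM in WT after 3 h, and their part in the differences of FLA11 and FLA12 was not tested.

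FLA9, the most abundant member, went the other way. It stood at 217, 258, 285 and 291 CPM in EXPA1 OE against 170, 154, 174 and 170 CPM in WT after 3 h. All libraries of the line lay above those of WT, where 48.4% of all genes tested had no overlap in either direction. The log2 fold change of 0.65 ± 0.09 (adjusted p = 9.92e-05, edgeR's quasi-likelihood test) was under the fold threshold. FLA13, its closest relative, was at 101, 139, 145 and 145 CPM in EXPA1 OE against 115, 111, 125 and 110 CPM in WT. Replicate 1 of the line lay below all of WT and the other 3 above all of WT, and FLA13 did not pass the test (0.20 ± 0.11, adjusted p = 0.133, edgeR's quasi-likelihood test).

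FLA1 and FLA2, the other members with paired domains, were lower by adjusted p alone. FLA1 had 20.7, 20.3, 19.0 and 19.4 CPM in EXPA1 OE against 29.8, 28.7, 24.9 and 27.2 CPM in WT, a log2 fold change of -0.48 ± 0.06 (adjusted p = 9.92e-05, edgeR's quasi-likelihood test). FLA2 had a log2 fold change of -0.29 ± 0.08 (adjusted p = 0.00853, the same edgeR test), with 65.8 to 81.6 CPM in EXPA1 OE against 85.7 to 99.8 CPM in WT. Over the 6 other settings of the processing the adjusted p of FLA2 reached 0.163 (edgeR or DESeq2 tests). The libraries did not overlap for FLA1 or for FLA2, which was so for 48.4% of all genes tested. FLA7, at 33.9 to 35.3 CPM in EXPA1 OE against 34.7 to 36.3 CPM in WT, had a log2 fold change of -0.04 ± 0.04 (adjusted p = 0.429, edgeR's quasi-likelihood test). FLA6, at 0.159 to 0.462 CPM against 0.0553 to 0.314 CPM, had 0.48 ± 0.57 (adjusted p = 0.504, the same edgeR test), so a difference of FLA6 was not detectable at this depth.

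**Figure D2:**
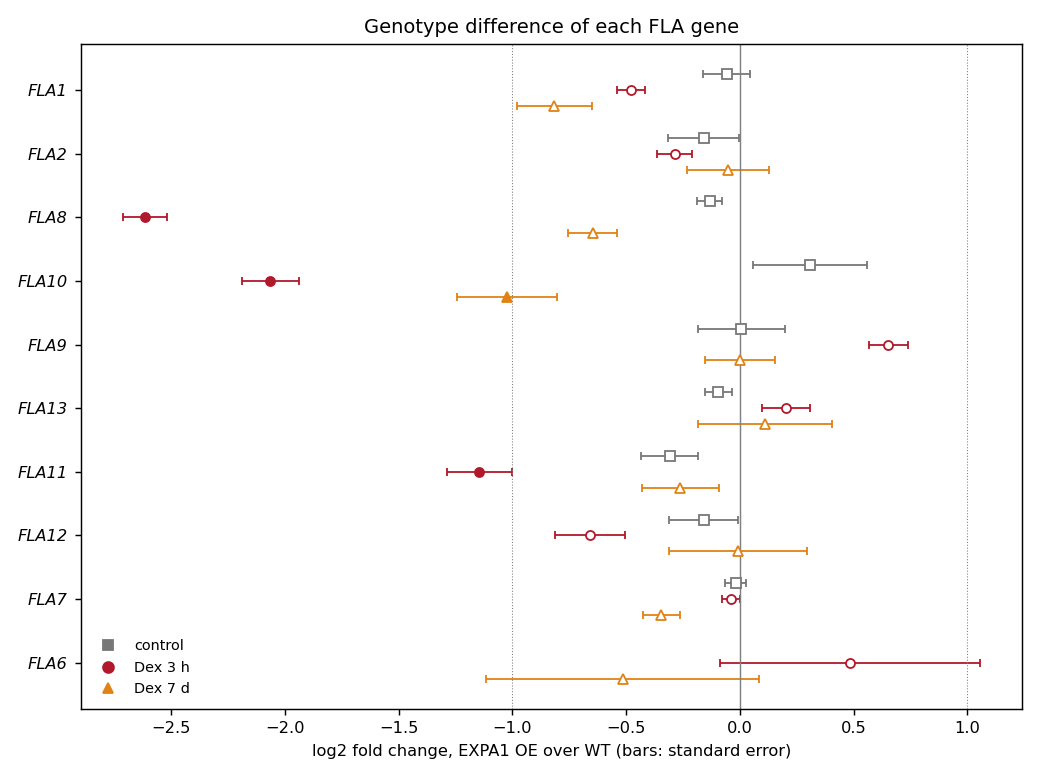
Fitted log2 fold change of EXPA1 OE over WT (x axis, bars are standard errors) for the 10 FLA genes under control conditions (squares), after 3 h of Dex (circles) and after 7 d of Dex (triangles), with filled symbols for genes past both thresholds and dotted lines at a log2 fold change of 1 in either direction. FLA8, FLA10 and FLA11 are filled at 3 h and only FLA10 is filled at 7 d, and FLA6 was not tested without Dex.

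Without Dex the 2 genotypes were compared to see what the line carries before induction. Of the 10 members 9 could be tested and 0 were called, by both thresholds or by adjusted p alone, where 3.15% (both thresholds) and 10.5% (adjusted p alone) of 20596 genes were in edgeR's quasi-likelihood test. At an unadjusted p under 0.05 stood FLA8 (-0.13 ± 0.06) and FLA11 (-0.31 ± 0.13), and DESeq2 called 1 member lower, FLA6. FLA8 had 171, 156, 147 and 156 CPM in EXPA1 OE control against 179, 172, 175 and 170.0 CPM in WT control, so the libraries of the genotypes overlapped. FLA10 had 9.23, 8.76, 8.33 and 6.85 CPM in EXPA1 OE control against 8.90, 8.88, 4.98 and 4.18 CPM in WT control. Within WT control, replicates 1 and 2 thus stood above replicates 3 and 4 for FLA10, while for FLA9 they stood below them, at 105 and 123 CPM against 201 and 191 CPM.

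FLA6 was the member with too few counts to test without Dex. It held 6 counts in replicate 1 of EXPA1 OE control and 0 counts in the other 3, where 3 counts correspond to 0.0451 to 0.0876 CPM depending on the library, against 66 counts over the 4 libraries of WT control. Markers of root moved in the same libraries. Their summed level was 14.4 to 19.0 CPM in EXPA1 OE control against 22.4 to 27.0 CPM in WT control, 3 of 8 tested were called lower and 0 higher, and after 3 h of Dex it was 28.2 to 35.0 CPM in EXPA1 OE against 21.8 to 24.6 CPM in WT, with 3 of 9 called higher, EXPA7 and COBL9 of root hairs among them. Over all genes tested 3.15% were called in either direction without Dex, and 4.51% were called higher after 3 h. None of the 9 root markers was at 0 in all 4 libraries of a group. The part of root tissue in the level of FLA6 was not tested.

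Whether the genotypes responded differently to 3 h of Dex was tested as an interaction over the 16 libraries of both genotypes without Dex and after 3 h. FLA8 (-2.50 ± 0.12, adjusted p = 2.05e-10) and FLA10 (-2.40 ± 0.30, adjusted p = 1.73e-05) had the lower response in EXPA1 OE by edgeR's quasi-likelihood test. FLA6 passed in the other direction (3.62 ± 1.22, adjusted p = 0.0277, the same edgeR test), on the few counts given above, so its fitted fold is no estimate of size, and the call was lost without replicate 1 of EXPA1 OE after 3 h, replicate 3 or 4 of EXPA1 OE control or replicate 2 of WT control (2.81 to 3.29). In all 1 member was called higher and 2 lower, where 7.16% of 21090 genes were called higher and 5% lower. FLA11 (-0.86 ± 0.19) and FLA1 (-0.44 ± 0.12) were lower and FLA9 (0.62 ± 0.23) was higher by adjusted p alone. The adjusted p reached 0.0803 for FLA1 over the 6 other settings (edgeR or DESeq2 tests). For FLA9 it reached 0.0836 with 1 library left out (edgeR's quasi-likelihood test). Called members included, 4 of 10 were lower and 2 higher by adjusted p, where 20.9% of all genes were lower and 17.6% higher.

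The arms of this interaction share the control libraries of their genotype with it and are given side by side. In EXPA1 OE, FLA8 fell by 2.92 on the log2 scale after 3 h of Dex against control (standard error 0.10), FLA10 by 2.58 (0.13) and FLA11 by 1.31 (0.16). These were the 3 members called among 9 tested, where 9.06% of 20548 genes were called lower and 9.05% higher by edgeR's quasi-likelihood test. FLA13 (0.94 ± 0.11) and FLA9 (0.75 ± 0.09) were higher by adjusted p alone, and FLA1 (-0.97 ± 0.05), FLA12 (-0.53 ± 0.17) and FLA7 (-0.32 ± 0.04) were lower. Called members included, 2 of 9 were higher and 6 lower by adjusted p, where 33.7% of all genes were higher and 33.3% lower. Without replicate 1 of EXPA1 OE after 3 h FLA13 also passed the fold threshold (1.05). In WT, 0 of 10 members passed both thresholds, where 8.94% of 20571 genes did, and DESeq2 also called 0. By adjusted p alone FLA8 (-0.42 ± 0.05), FLA11 (-0.45 ± 0.09), FLA1 (-0.53 ± 0.11) and FLA7 (-0.27 ± 0.05) were lower and FLA13 (0.66 ± 0.06) was higher in WT after 3 h than in WT control, where 17.9% of all genes were lower and 18.6% higher. For FLA7 the interaction was -0.05 ± 0.06 and for FLA13 0.27 ± 0.13, and neither passed in edgeR's quasi-likelihood test (adjusted p = 0.550 for FLA7 and adjusted p = 0.118 for FLA13).

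**Figure D3:**
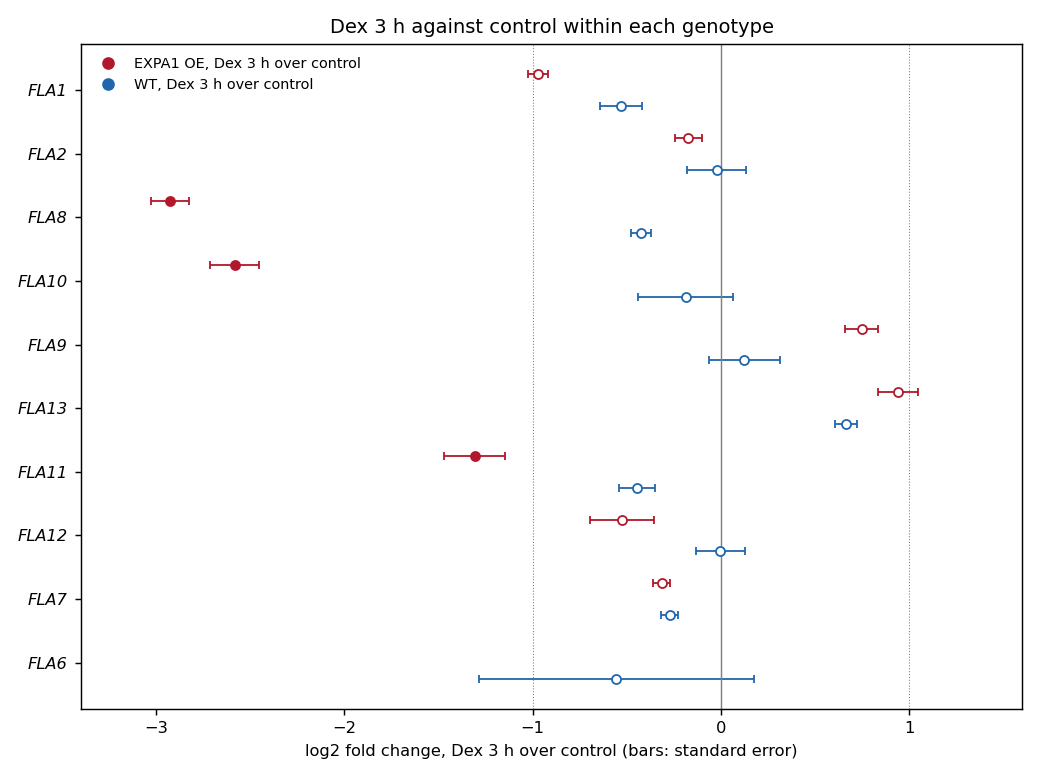
Fitted log2 fold change of Dex 3 h over control (x axis, bars are standard errors) within EXPA1 OE (red) and within WT (blue) for each FLA gene, with filled symbols past both thresholds and dotted lines at a log2 fold change of 1 in either direction. FLA8 stands at -2.92 in EXPA1 OE against -0.42 in WT, while FLA7 stands at -0.32 against -0.27.

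The comparison after 7 days on Dex set the line with EXPA1 raised throughout growth against WT. FLA10 was the only member called. It had 3.11, 4.06, 5.02 and 5.53 CPM in EXPA1 OE against 7.66, 6.95, 10.2 and 11.3 CPM in WT. All libraries of the line lay below those of WT, where 23.3% of all genes tested had no overlap in either direction. In each genotype replicates 3 and 4 stood above replicates 1 and 2. The log2 fold change was -1.03 ± 0.22 (adjusted p = 0.0190, edgeR's quasi-likelihood test). Of the 10 members tested 1 was called lower and 0 higher, where 1.65% of 20665 genes were called lower and 2.22% higher, and the median of the members was -0.30 against 0.00 over all genes tested. The call of FLA10 lies at the threshold: without replicate 1 or 2 of EXPA1 OE or replicate 3 or 4 of WT it was lost, with log2 fold changes of -0.99 to -0.89 and adjusted p = 0.0370 to 0.0585 (edgeR's quasi-likelihood test).

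FLA1, FLA8 and FLA7 were lower at 7 days by adjusted p alone. With the called FLA10, 4 of 10 members were lower by adjusted p, where 7.37% of all genes tested were. FLA8 had 87.3, 86.5, 113 and 107 CPM in EXPA1 OE against 143, 145, 161 and 168 CPM in WT, with no overlap, as for 23.3% of all genes, and a log2 fold change of -0.65 ± 0.11 (adjusted p = 0.00759, edgeR's quasi-likelihood test). FLA1 had 18.9, 19.96, 27.6 and 27.4 CPM in EXPA1 OE against 36.1, 35.4, 48.7 and 45.04 CPM in WT, a log2 fold change of -0.82 ± 0.16 (adjusted p = 0.0153, the same edgeR test). FLA7 had -0.35 ± 0.08 (adjusted p = 0.0263, the same edgeR test). Of these 3, FLA1 had the largest difference, and its libraries also did not overlap.

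FLA13 had the widest spread of the members above 1 CPM in EXPA1 OE at 7 days. It stood at 44.9, 42.7, 106 and 87.8 CPM in EXPA1 OE against 57.4, 60.5, 66.7 and 76.6 CPM in WT, so the line had both the lowest and the highest libraries. Its log2 fold change was 0.11 ± 0.29 (adjusted p = 0.821, edgeR's quasi-likelihood test). FLA9 was at 97.97 to 163 CPM in EXPA1 OE against 108 to 146 CPM in WT, a log2 fold change of 0.00 ± 0.16 (adjusted p = 0.996, the same edgeR test). FLA11, FLA12, FLA2 and FLA6 did not pass either (log2 fold changes of -0.26 ± 0.17, -0.01 ± 0.30, -0.05 ± 0.18 and -0.51 ± 0.60).

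The Dex effect over 7 days was small in WT, where 0 of 10 members and 0.00482% of 20768 genes were called (0.00963% by adjusted p alone), and the members ran from -0.27 to 0.80 (edgeR's quasi-likelihood test). At an unadjusted p under 0.05 stood FLA8 (-0.17 ± 0.07), and DESeq2 also called 0 members. In EXPA1 OE, 0 of 9 members tested passed both thresholds against control, where 6.24% of 20104 genes did, and FLA10 (-0.89 ± 0.18), FLA1 (-0.70 ± 0.13), FLA8 (-0.67 ± 0.10) and FLA7 (-0.32 ± 0.07) were lower by adjusted p alone, as were 14.4% of all genes. Without replicate 4 of EXPA1 OE at 7 days FLA10 passed both thresholds (-1.01), and DESeq2 called 1 member higher, FLA6. The interaction at 7 days called FLA10 alone (-1.32 ± 0.36, adjusted p = 0.0290, edgeR's quasi-likelihood test), where 0.855% of 21180 genes were called lower and 3.24% higher. FLA1 (-0.74 ± 0.20), FLA8 (-0.50 ± 0.13) and FLA7 (-0.31 ± 0.09) were lower by adjusted p alone in that interaction. With the called FLA10, 4 of 10 members were lower by adjusted p, as were 3.55% of all genes. The call of FLA10 was lost without any 1 of 7 libraries (replicate 2 of EXPA1 OE and 3 or 4 of WT at 7 days, replicates 1, 2 or 3 of EXPA1 OE control and 3 of WT control), at -1.31 to -1.19. In the edgeR fit with the replicate number as a block it was lost too, at -1.32 (adjusted p = 0.0661). FLA1 (adjusted p = 0.0606) and FLA7 (adjusted p = 0.0511) also did not pass in that fit, and FLA8 did (adjusted p = 0.0355). With 1 library left out the highest adjusted p was 0.0657 for FLA1 and 0.0896 for FLA7 (edgeR's quasi-likelihood test).

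The genotype difference at 7 days was set against that at 3 h over their 16 libraries. FLA8 (1.98 ± 0.16, adjusted p = 5.36e-07) and FLA10 (1.05 ± 0.26, adjusted p = 0.00740) were called, both with a smaller deficit in EXPA1 OE at 7 days than at 3 h (edgeR's quasi-likelihood test). The 2 higher calls and 0 lower calls of the 10 members compare with 4.77% of 21141 genes called higher and 3.76% called lower. FLA11 (0.90 ± 0.23) moved the same way by adjusted p alone, and FLA9 (-0.64 ± 0.19) and FLA7 (-0.29 ± 0.09) the other way. Called members included, 3 of 10 were higher and 2 lower by adjusted p, where 14.9% of all genes were higher and 14.1% lower. FLA10 was under the fold threshold (0.92 to 1.00) without replicate 2 or 3 of EXPA1 OE at 3 h, 3 or 4 of EXPA1 OE at 7 days or 1 or 2 of WT at 7 days, and FLA11 was over it without replicate 1 of EXPA1 OE at either time (1.05 and 1.02). For FLA1 the difference between the times did not pass (-0.33 ± 0.19, adjusted p = 0.214, edgeR's quasi-likelihood test).

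The makeup of the summed level of the 10 members differed between the genotypes after 3 h, while the summed levels overlapped. Other FLA genes are not part of this sum. The summed level of the 10 members was 499.95 ± 58.2 CPM per kb in EXPA1 OE against 479.5 ± 21.0 CPM per kb in WT after 3 h, 359 ± 86.4 against 411 ± 19.5 after 7 days, and 440.2 ± 24.7 against 467 ± 55.8 without Dex (SD, n = 4), with overlap at each time. FLA8 made up 2.02% to 3.55% of that sum in EXPA1 OE after 3 h, against 16.8% to 17.6% in WT. FLA9 and FLA13 together made up 76.6% to 80.9% in EXPA1 OE against 59.4% to 60.5% in WT after 3 h. At 7 days they made up 51.5% to 59.2% in EXPA1 OE against 44.5% to 49.4% in WT. Per length, FLA9 stood at 19.4 ± 4.59 times the level of FLA8 in EXPA1 OE after 3 h against 1.97 ± 0.0785 times in WT. A share can change through the other members, and these shares follow from the levels above and carry no test of their own.

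**Figure D4:**
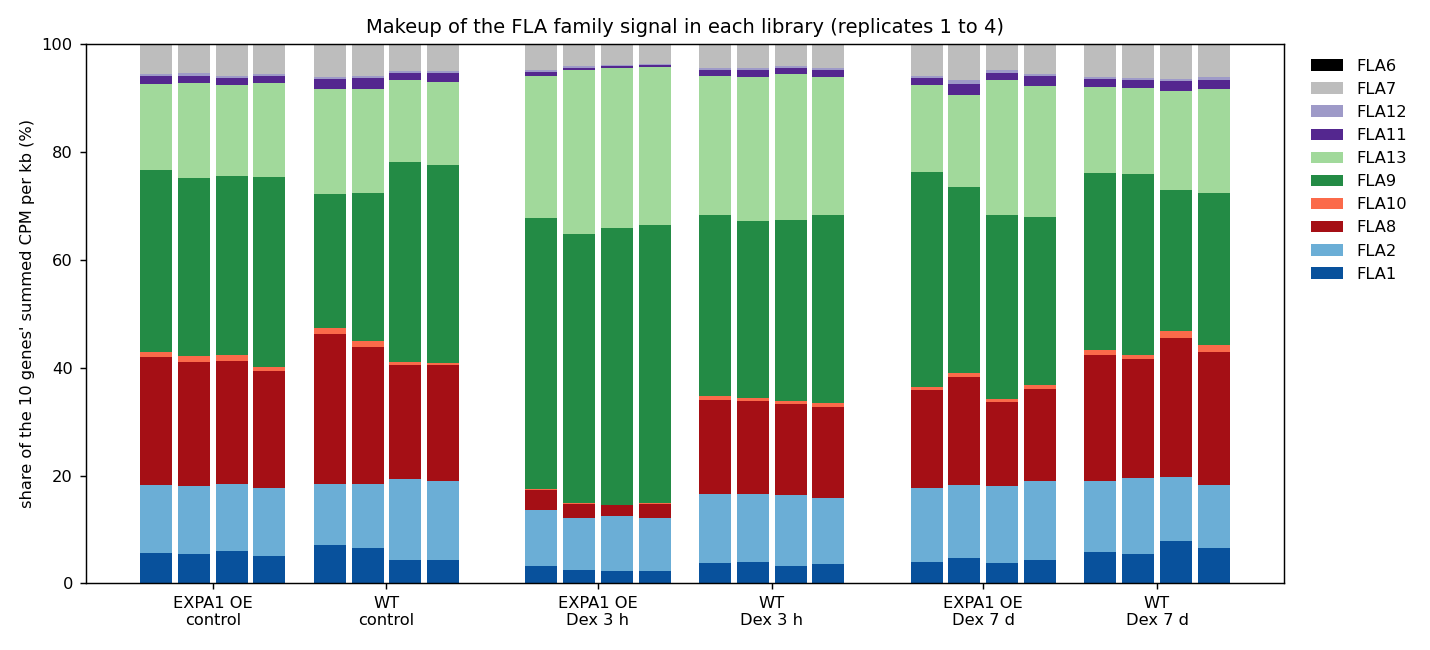
Share of each FLA gene in the summed CPM per kb of the 10 genes (y axis, percent), 1 stacked bar per library with replicates 1 to 4 from left to right in each group. FLA8 (dark red) takes 2.02% to 3.55% in EXPA1 OE after 3 h against 16.8% to 17.6% in WT after 3 h, and FLA9 with FLA13 (greens) takes 76.6% to 80.9% against 59.4% to 60.5%.

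Over all 24 libraries the members formed sets with like patterns, given here as a description of log2 CPM. FLA8 correlated with FLA11 at r = 0.94 and with FLA10 at r = 0.94 (Pearson, n = 24), and FLA8 and FLA9 ran against each other at r = -0.70. The 4 libraries of EXPA1 OE after 3 h stand apart in FLA8, so these values rest largely on them. In the other 20 libraries r was 0.68 for FLA8 with FLA11, 0.70 for FLA8 with FLA10 and 0.25 for FLA8 with FLA9. FLA1 with FLA7 (0.90 with and 0.91 without those libraries) and FLA1 with FLA8 (0.79 and 0.91) kept their likeness. The libraries share groups, Dex times and replicate numbers, so they are not independent points.

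**Figure D5:**
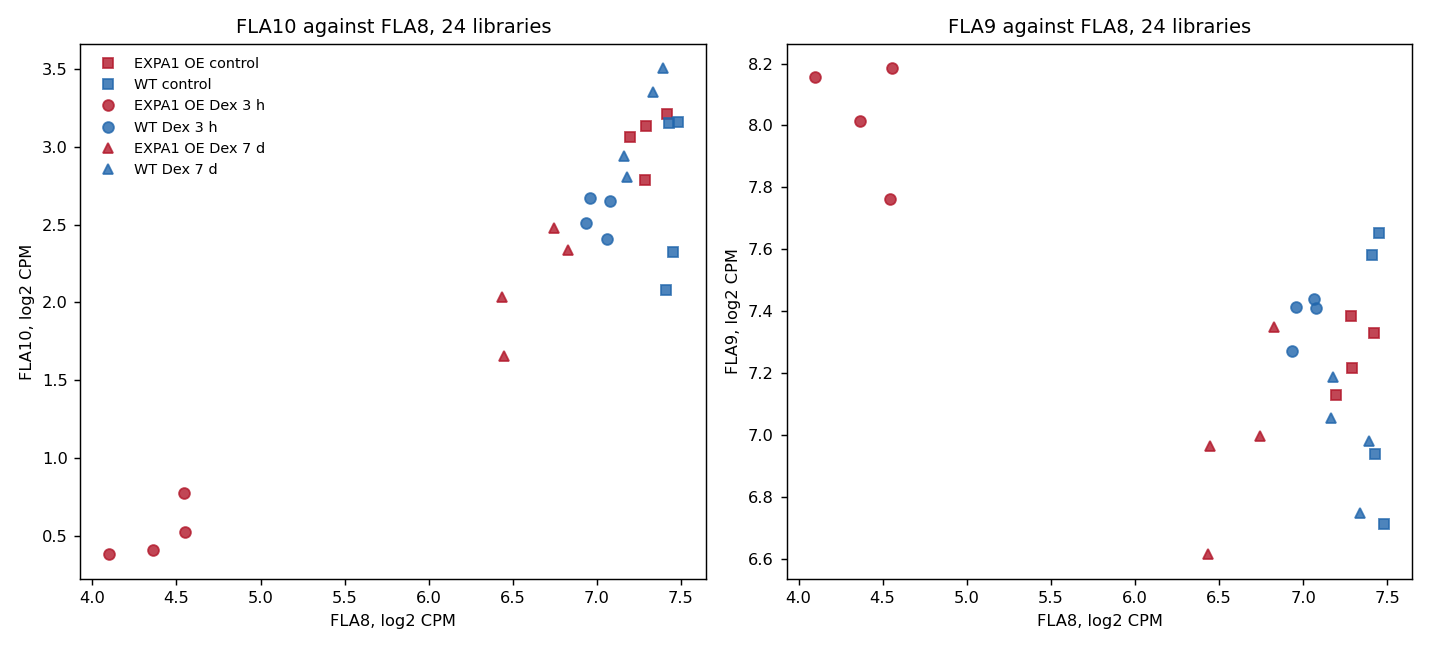
Log2 CPM of FLA10 (left panel, y axis) and of FLA9 (right panel, y axis) against log2 CPM of FLA8 (x axes), 1 point per library, EXPA1 OE in red and WT in blue, with squares for control, circles for Dex 3 h and triangles for Dex 7 d. The EXPA1 OE libraries after 3 h stand apart at low FLA8, and without them r is 0.70 in the left panel and 0.25 in the right panel (n = 20).

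Among 18230 genes with a mean of at least 1 CPM, those most like FLA8 over the 24 libraries were AT1G78060 (r = 0.99), AT5G13140 (r = 0.99) and VSR3 (r = 0.99), a receptor that sorts cargo to the vacuole. In the 20 libraries without EXPA1 OE after 3 h their r with FLA8 was 0.84, 0.91 and 0.80. Those most like FLA9 were XTH16 (r = 0.95), of the xyloglucan-remodelling enzymes, BSK7 (r = 0.94), of the brassinosteroid signalling kinases, and GILP (r = 0.93). In the same 20 libraries their r with FLA9 was 0.91, 0.86 and 0.84.

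Other genes of arabinogalactan proteins were compared in the same libraries. Of the 10 other FLA genes 5 could be tested after 3 h and 0 were called (edgeR's quasi-likelihood test, with FLA15 higher by adjusted p alone at 0.39 ± 0.08 and FLA17 lower at -0.12 ± 0.04). FLA4, known as SOS5 from salt sensitivity of the root, had -0.15 ± 0.09, and the FEI1 and FEI2 receptor kinases that act with it had -0.18 ± 0.06 and 0.12 ± 0.05, under the fold threshold. Of 14 classical arabinogalactan protein genes tested 3 were called higher and 0 lower, AGP4 (1.98 ± 0.11), AGP10 (1.28 ± 0.08) and AGP18 (1.03 ± 0.10). By adjusted p, called genes included, 5 of the 14 were higher and 3 lower, and their median log2 fold change was 0.13. Over all genes tested after 3 h, 4.51% were called higher and 4.89% lower, and 27.4% were higher and 25.8% lower by adjusted p. AGP4 averaged 61.7 ± 7.92 CPM in EXPA1 OE against 15.6 ± 1.91 CPM in WT after 3 h (SD, n = 4). Of 11 arabinogalactan peptide genes 1 was called lower, AGP40 (-1.41 ± 0.21), and 6 were higher by adjusted p alone, among them AGP12 (1.00 ± 0.11), AGP15 (0.86 ± 0.07) and AGP20 (0.45 ± 0.06).

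Of 18 listed genes of arabinogalactan glycosylation 10 matched the reference by symbol and were kept, and the others, HPGT1, GALT3 and KNS4 among them, were dropped. Of the 10 kept, 2 were called higher after 3 h, the fucosyltransferase genes FUT4 (1.39 ± 0.18) and FUT6 (1.06 ± 0.32). By adjusted p alone 3 were lower, among them GALT31A (-0.76 ± 0.12) and GLCAT14A (-0.40 ± 0.06). Over all genes tested 4.51% were called higher and 25.8% were lower by adjusted p. Of 6 listed genes of GPI anchor synthesis or transfer 4 matched in the same way. Of these 4, 0 were called, with PNT1 at -0.64 ± 0.11, SETH2 at -0.13 ± 0.07 and APTG1 at -0.06 ± 0.10. At 7 days 1 gene of these lists was called, the peptide gene AGP41 (-1.30 ± 0.31), with 0.842 ± 0.332 CPM in EXPA1 OE against 2.08 ± 0.456 CPM in WT. Over all genes tested at 7 days 1.65% were called lower. AGP10 was higher there by adjusted p alone (0.85 ± 0.23).

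Markers of other tissues give the setting of these values. All 6 green shoot markers were lower after 3 h by adjusted p alone and 0 passed both thresholds, with LHCB1.1 at -0.75 ± 0.06 and LHCB2.1 at -0.66 ± 0.07. Over all genes tested after 3 h, 25.8% were lower by adjusted p and 4.89% were called lower. Of 5 guard cell markers 0 passed either test, with HT1 at 0.30 ± 0.13. No marker of green shoot, xylem or meristem was at 0 in all 4 libraries of a group. Of 4 meristem and leaf primordium markers tested 1 was called lower, ANT (-1.16 ± 0.06), a growth regulator of young organs, at 12.2 ± 0.719 CPM in EXPA1 OE against 27.2 ± 0.879 CPM in WT, and CUC2 had -0.83 ± 0.24. The summed level of all 5 listed markers of this kind was 15.3 to 17.1 CPM in EXPA1 OE against 31.4 to 33.9 CPM in WT after 3 h and 19.4 to 22.1 CPM against 32.0 to 38.5 CPM after 7 days. After 3 h most of this sum was ANT in both genotypes, so it mainly repeats the value of that gene. ANT was also lower at 7 days (-1.06 ± 0.09, edgeR's quasi-likelihood test). STM, which maintains the shoot meristem, was higher then by adjusted p alone (0.64 ± 0.10, adjusted p = 0.00642, the same edgeR test), with 4.28 ± 0.235 CPM in EXPA1 OE against 2.75 ± 0.144 CPM in WT (SD, n = 4). At 7 days 0 markers of xylem, root, green shoot or guard cells were called. The part of young tissue in the levels of FLA8 and FLA10 was not tested.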

How the data were processed

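RNA was sequenced from 24 shoot libraries, 6 groups of 4 replicates. Per the labels and the methods, the authors trimmed reads with Trimmomatic, aligned them with STAR to TAIR10 and deposited estimated counts per gene from RSEM. The authors also deposited exon counts from featureCounts, a count of reads over exons, which summed to 83.3% to 97.8% of the estimated counts per library. The sources name different kits and read lengths, and the handling of molecular identifiers before counting is not given in the sources used here. The labels exchange the genotype and treatment fields, so groups were taken from titles. Estimated counts (3.82% of values not whole) were rounded. Tests used edgeR 4.0.16 in R 4.3.3: its expression filter, TMM and its quasi-likelihood test on the 8 or 16 libraries compared, adjusted over all genes tested. The edgeR fit was tested on simulated data. Log2 CPM used a prior count of 2. Values were summarised with Python 3.11, pandas 2.3.3 and numpy 2.4.6. Intervals of counting are not given, and p-values set a difference between groups against the spread between these replicates, moderated over the genes tested.

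Members were the 10 rows given by locus. The members and gene lists were chosen with earlier results of these data known. Named besides the members were EXPA1, at most 3 genes per list with the smallest adjusted p at 3 h and at 7 d, and the 3 genes most like FLA8 and FLA9; AGP40, FUT6 and MYB83 lie outside this rule and were picked with their values in view. Some results of root markers are not reported here. Internal exons of the authors' table had the same coordinates as the reference genome for 96.8% of 154307.

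Same-numbered libraries deviated together from their group means only between the genotypes at 7 days (correlations 0.160 to 0.486 over genes), a hint from the data since no source states a pairing. With the replicate number as a block FLA10 had -1.03 there (adjusted p = 0.00258, edgeR's quasi-likelihood test). Alternatives were exon counts, DESeq2 1.42.0, RLE size factors, no filter, all 24 libraries in 1 fit, the block, and each library left out.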

Additional observations from a re-analysis of the deposited data

Results flagged for a closer look

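2 members had 1 library far from the other 3 of its group, out of 60 groups of 4 libraries examined, where chance gives about 1 in 20. FLA6 in EXPA1 OE control was highest in replicate 1 (0.0899 CPM), with the other 3 libraries at 0, so the gap was the whole range (ratio 1). FLA13 in EXPA1 OE after 3 h was lowest in replicate 1 (101 CPM), with a gap of 0.879 of the range on the log2 scale.

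The genotypes differed in their response to Dex at 3 h, by edgeR's quasi-likelihood test of the interaction, for FLA8 (log2 difference -2.50), FLA10 (-2.40) and FLA6 (3.62), and at 7 days for FLA10 (-1.32). The genotype difference at 7 days minus that at 3 h was 1.98 for FLA8 and 1.05 for FLA10 by the same test. The value of FLA6 rests on 6 counts in EXPA1 OE control.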

How the results depend on the processing

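The calls of FLA8, FLA10 and FLA11 after 3 h held under the 6 other settings and without each library in turn, with log2 fold changes of -2.67 to -2.52, -2.16 to -2.01 and -1.30 to -1.07 over the libraries left out. Of 1598 refits of member values 63 changed sign, 52 of them with 1 library left out, and in those 0 had an adjusted p under 0.05 (the largest was 0.23 in size). Some results by adjusted p alone did not pass in every refit. Over the 6 other settings the highest adjusted p (edgeR or DESeq2 tests) was 0.163 for FLA2 between the genotypes at 3 h. It was 0.0803 for FLA1 in the interaction at 3 h. With 1 library left out (edgeR's quasi-likelihood test) it was 0.0836 for FLA9 in the interaction at 3 h. For FLA12 in EXPA1 OE after 3 h against control it was 0.0589, and between the genotypes at 7 days 0.0507 for FLA1 and 0.0817 for FLA7. Leaving out 1 library changed some counts of members called: 3 to 4 in EXPA1 OE after 3 h against control (FLA13 joined without replicate 1 of EXPA1 OE after 3 h, at 1.05), 0 to 1 in EXPA1 OE against WT at 7 days, 0 to 1 in EXPA1 OE at 7 days against control (FLA10 joined at -1.01 without replicate 4 of EXPA1 OE at 7 days), 2 to 3 in the interaction at 3 h, 0 to 1 in the interaction at 7 days and 1 to 3 in the difference of the genotype effect at 7 days and 3 h; the counts stayed at 3 for EXPA1 OE against WT at 3 h and at 0 for the genotypes without Dex and for both comparisons within WT. FLA6 lost its interaction without replicate 1 of EXPA1 OE after 3 h, replicate 3 or 4 of EXPA1 OE control or replicate 2 of WT control (2.81 to 3.29, adjusted p = 0.0555 to 0.0649, edgeR's quasi-likelihood test). FLA10 lost the interaction at 7 days without any 1 of 7 libraries (-1.31 to -1.19, adjusted p = 0.0515 to 0.0597, the same edgeR test), and in the difference between times it fell under the fold threshold without any 1 of 6 (0.92 to 1.00), while FLA11 passed it without replicate 1 of EXPA1 OE after 3 h or at 7 days (1.05 and 1.02).

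FLA6 made up the other changes in the counts of members called: 1 against 0 for the genotypes without Dex with DESeq2 and with all 24 libraries in 1 fit, and, with these settings and with no filter on low counts, 1 against 0 for EXPA1 OE at 7 days against control and 4 against 3 for EXPA1 OE after 3 h against control. Over all genes, the calls between the genotypes at 7 days were 1246 with all 24 libraries in 1 fit against 801, and those in WT at 7 days against control were 26 with DESeq2, 12 with all 24 libraries in 1 fit and 0 with the replicate block against 1. Leaving out 1 library gave 352 to 724 against 648 between the genotypes without Dex, 570 to 809 between them at 7 days, and 0 in WT at 7 days against control. With the replicate block the member called in the interaction at 7 days, FLA10, was lost (0 called, -1.32, adjusted p = 0.0661, edgeR's quasi-likelihood test), where the numbers do not pair the control libraries. No other call of a member past both thresholds changed. By adjusted p alone FLA1 (adjusted p = 0.0606) and FLA7 (adjusted p = 0.0511) were lost from that interaction. FLA12 joined the interaction at 3 h (-0.52, adjusted p = 0.0326, the same edgeR test). The cause of these changes was not tested. Depth limits FLA6, which had 0 to 41 counts per library.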
